A study of Mus musculus with 6 samples.

Results

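The E proteins and the Id proteins were examined through H3K4me3, a histone mark of promoters, at the 7 genes that encode them in mouse: Tcf3, Tcf4 and Tcf12 for the E proteins and Id1, Id2, Id3 and Id4 for the Id proteins. The genes were chosen by name, all 7 were found among the 21951 protein-coding genes of the GENCODE M21 annotation, and the peaks counted for each were those that reached within 2500 bp of any of its annotated transcription start sites (TSSs). A gene with such a peak is called marked here.

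The study set T-lineage against B-lineage cells and measured H3K4me3 by ChIP-seq in 2 transformed mouse lines. The pro-T line, Scid.adh.2C2, goes back through its parent line Scid.adh to a SCID mouse with a lymphoma of the thymus, and the other, called the pre-B line here, consists of pre-B cells transformed with the Abelson virus. Each line had 2 H3K4me3 libraries and 1 input library, 6 samples in all, without treatment, and each line gave 1 list of peaks in which both replicates were combined. Each lineage is therefore represented by 1 line, so that lineage, strain, transformation and clone cannot be told apart, the spread between replicates is unknown, and no difference between the lines was tested.

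E proteins are basic helix-loop-helix transcription factors that bind DNA as dimers at E-boxes, and they are needed for both B-cell and T-cell development. Id proteins have the helix-loop-helix but no basic region, so that their dimers with E proteins do not bind DNA. The balance between both families is known to set lymphoid fates, and several E protein genes are known to make long and short proteins from separate start sites.

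The peak list of Scid.adh.2C2 held 15513 peaks and that of the pre-B line held 19604. Each peak carried a fold enrichment, the authors' ratio of ChIP signal over background. Its median was 20.3 over the peaks of Scid.adh.2C2 and 15.4 over those of the pre-B line, and since the lists were scaled separately, the lines are compared by percentile: the percent of marked protein-coding genes of the same list whose highest promoter fold was at or below that of the gene. The labels of the lines were checked first, with marker lists chosen when earlier results of these data were already known. Of 10 T-cell marker genes, 10 were marked in Scid.adh.2C2 against 3 in the pre-B line. Of 10 B-cell marker genes, 1 was marked in Scid.adh.2C2 against 10 in the pre-B line. None of 8 myeloid marker genes was marked in either list.

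In Scid.adh.2C2, 5 of the 7 genes were marked, against 45.5% of all protein-coding genes, and in the pre-B line also 5 of 7, against 48.2%. Tcf3, Tcf12, Id2 and Id3 were marked in both lines, as were 42.2% of protein-coding genes. Id1 had a peak in Scid.adh.2C2 alone, as did 3.28% of genes, Tcf4 had one in the pre-B line alone, as did 5.96%, and Id4 in neither, as was so for 48.6%. An unmarked gene is one where no peak passed the authors' thresholds. The 5 marked genes had a median percentile of 11.4 for the highest fold in Scid.adh.2C2 against 51.7 in the pre-B line, and the 4 marked in both lines had medians of 24.5 and 56.8. Of the 4 genes marked in both lines, 3 stood at a higher percentile in the pre-B line, and Tcf12 stood at a higher one in Scid.adh.2C2.

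**Figure D1:**
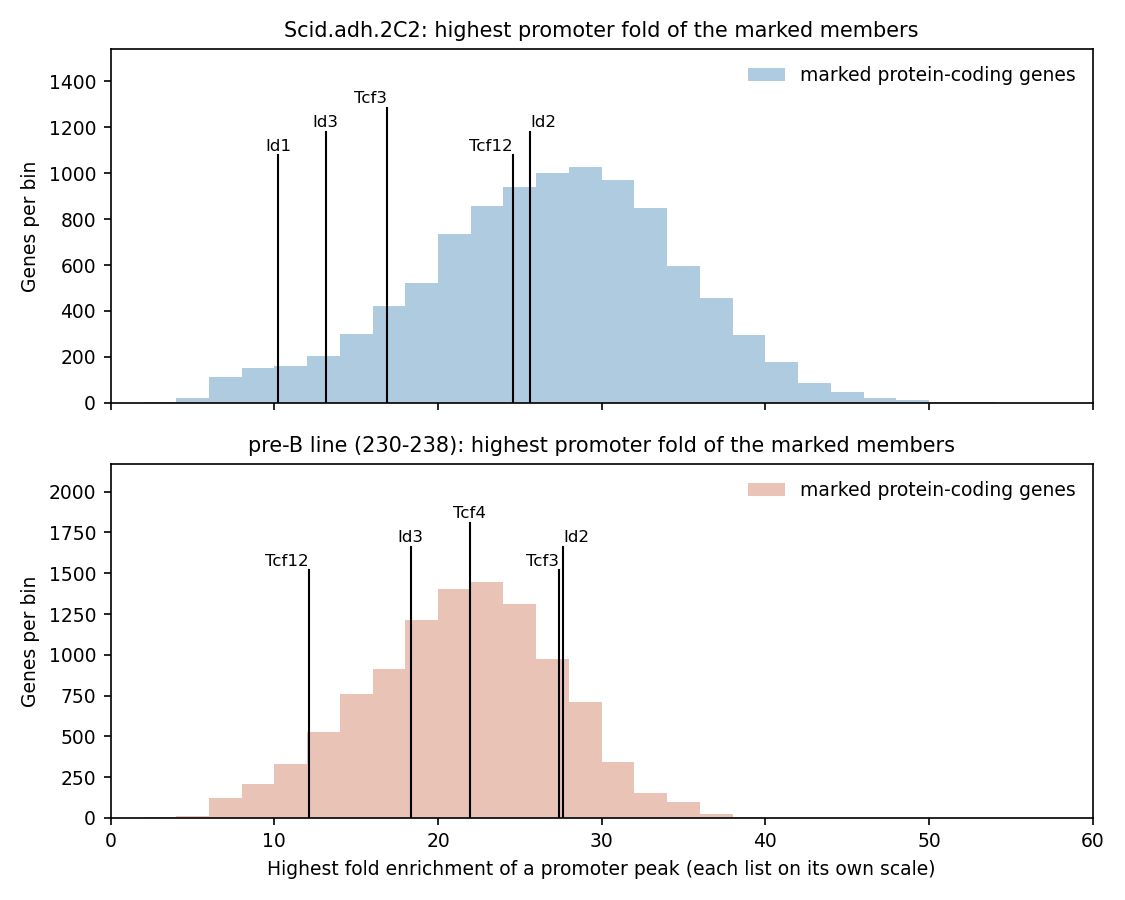
Number of marked protein-coding genes (y axis) by the highest fold enrichment of their promoter peaks (x axis, bins of 2) in Scid.adh.2C2 (top) and the pre-B line (bottom), with black lines at the marked E protein and Id protein genes. In Scid.adh.2C2 all 5 lines lie below the median of 27.1, and in the pre-B line Tcf3, Tcf4 and Id2 lie above the median of 21.7.

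Tcf3 encodes the E2A proteins, E proteins that early B-cell development needs. It lies on the minus strand at chr10:80409514-80433647 (GRCm38). In Scid.adh.2C2 its main peak, chr10:80432053-80434046, was 1994 bp wide with a fold of 16.9, at the 11.4 percentile. The main peak of the pre-B line, chr10:80430011-80434103, was 4093 bp wide with a fold of 27.4, at the 84.7 percentile. By −log10 q the lines stood closer, at the 19.1 and 56.9 percentile. The summits of both peaks lay 2 bp apart, in an intron 703 bp and 701 bp downstream of the nearest TSS, whereas over the 8534 genes whose highest peaks overlapped between the lists the median distance was 57.0 bp. The peak of the pre-B line was 2.05 times as wide, a ratio at the 94.9 percentile of those genes, whose median was 1.10.

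Most of the added width of the Tcf3 peak in the pre-B line lay on the downstream side. It took in a group of 3 TSSs at chr10:80430985-80431082 that was 971 bp away from the nearest peak of Scid.adh.2C2. The 5 TSSs of the main start, at chr10:80433621-80433647, were inside a peak in both lines. The other 3 TSS groups of the gene were 7916 to 10193 bp from the nearest peak of either list. TSSs were joined into a group where the next lay within 500 bp. A narrow upstream peak stood apart from the main one by a gap of 80 bp in Scid.adh.2C2 and of 75 bp in the pre-B line, with a fold of 7.21 and 14.2. Another narrow peak 12.9 kb upstream was shared by both lines, with a fold of 8.29 and 7.84.

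Tcf4 encodes E2-2, the E protein on which plasmacytoid dendritic cells depend. It lies on the plus strand at chr18:69343356-69689079 and has 58 annotated TSSs in 18 groups. In Scid.adh.2C2 no peak lay in the gene, and the nearest peak to any of its TSSs was 789176 bp away. The stretch without a peak in that list, chr18:68475232-70471555, was 1996324 bp long and held 4 protein-coding genes. Of the 15492 stretches between neighbouring peaks in the list, 229 were longer. In the pre-B line the same stretch held 17 peaks.

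In the pre-B line 7 peaks reached the promoter windows of Tcf4, and 24 of the 58 TSSs, in 6 of the 18 groups, lay inside a peak. At the 5′ end of the gene, chr18:69343530-69347382 was 3853 bp wide with a fold of 16.2 and covered 14 TSSs. At an internal start 251 kb downstream, chr18:69593197-69597413 was 4217 bp wide with a fold of 21.9, the highest of the gene, and covered 8 TSSs. Between them, chr18:69415027-69417611 covered 1 TSS, with its summit 72.0 kb into the gene and a fold of 10.9. So the internal start carried a higher and wider peak than the 5′ end. The highest fold stood near the middle of the list, at the 51.7 percentile, but its −log10 q of 171 stood at the 91.6 percentile.

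The peaks of Tcf4 covered 13275 bp of its promoter windows in the pre-B line, which ranked 3 of 10570 marked genes. Its windows were also long, 64341 bp in all. Beyond the windows 9 distal peaks, which reached no promoter window of any annotated gene, lay in introns of Tcf4, with folds from 6.99 to 19.0. The one with the highest fold, chr18:69399512-69401210, lay 56.8 kb into the gene. None of the 9 overlapped a peak of Scid.adh.2C2, as was so for 76.6% of the 5815 distal peaks of the list. In the pre-B line a median of 0 distal peaks was found in the gene body and 100000 bp either side over all protein-coding genes, and 9 stood at the 99.7 percentile. Tcf4 is a long gene, and among the 452 protein-coding genes at least as long its 9 peaks stood at the 98.5 percentile.

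Tcf12 encodes HEB, an E protein that T-cell precursors need and that is known in a canonical and a short form. It lies on the minus strand at chr9:71842688-72111871 and has 20 TSSs in 7 groups. Both lines had a peak at the 5′ end. In Scid.adh.2C2 it was chr9:72108551-72112776, 4226 bp wide with a fold of 20.0. That of the pre-B line was chr9:72109201-72112647, 3447 bp wide with a fold of 12.1. The summits lay 353 bp and 317 bp upstream of the most upstream TSS, and the same 12 TSSs were inside the peak in both lines.

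A second Tcf12 start had a peak in Scid.adh.2C2 alone. The peak, chr9:71893343-71896279, was 2937 bp wide with a fold of 24.6, higher than at the 5′ end, and its summit lay in an intron 800 bp downstream of the nearest TSS and 217 kb from the 5′ end. It covered 3 of the 4 TSSs at chr9:71895985-71896396. The nearest peak of the pre-B line was 54540 bp away from that group. The highest fold of Tcf12 stood at the 37.5 percentile in Scid.adh.2C2 and the 6.59 percentile in the pre-B line, and by −log10 q at 30.2 and 13.5. The covered length was 7021 bp in Scid.adh.2C2, rank 34 of 9980 marked genes, and 3447 bp in the pre-B line, rank 2741 of 10570. The windows of Tcf12 were also long, 27565 bp in all. The ratio of 0.491 stood at the 1.38 percentile of the 9261 genes marked in both lines, whose median ratio was 1.11.

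A start covered in both lines beside one covered in Scid.adh.2C2 only was found in 175 of the 6703 protein-coding genes with 2 or more TSS groups that were marked in both lines, or 2.61%. The opposite arrangement, with another start covered in the pre-B line only, was found in 528, or 7.88%. Tcf3 is one of these, through the wider main peak and not through a separate one. A gene with more TSS groups has more chances of either arrangement, and Tcf12 has 7 groups and Tcf3 has 5.

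RefSeq promoters on GRCm38.p6, 250 bases before to 50 bases after a gene's start, were matched by symbol for 5 of the 7 genes, all but Id1 and Tcf4, with 3 entries for Tcf12. The internal and the outermost Tcf12 promoter are shown because the first overlapped a peak in Scid.adh.2C2 alone and the second in both lines. Capitals mark CANNTG, the general E-box, which is its own reverse complement, so that 1 search covered both strands, and sequences run 5′ to 3′. The internal promoter is chr9:71896047-71896346 and the outermost one chr9:72111770-72112069, both on the minus strand.

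Tcf12 internal promoter: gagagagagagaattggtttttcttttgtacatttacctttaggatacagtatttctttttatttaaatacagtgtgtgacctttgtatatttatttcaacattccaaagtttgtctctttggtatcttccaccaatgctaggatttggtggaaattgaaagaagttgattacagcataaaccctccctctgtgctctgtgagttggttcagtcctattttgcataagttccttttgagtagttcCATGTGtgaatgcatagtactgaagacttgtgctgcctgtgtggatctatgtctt

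Tcf12 outermost promoter: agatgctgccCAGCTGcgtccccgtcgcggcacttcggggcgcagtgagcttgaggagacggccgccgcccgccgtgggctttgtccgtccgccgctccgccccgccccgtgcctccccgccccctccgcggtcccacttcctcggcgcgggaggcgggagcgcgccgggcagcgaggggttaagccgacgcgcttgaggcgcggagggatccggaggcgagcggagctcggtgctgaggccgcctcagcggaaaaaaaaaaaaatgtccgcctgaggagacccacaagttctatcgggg

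The internal Tcf12 promoter held 0 CpG dinucleotides and 36.3% G or C, and the outermost one held 41 CpG and 71.7% G or C. Over the 32851 promoters of the table the median was 7.0 CpG. Of the 12496 promoters with 0 to 4 CpG, 3.04% overlapped a peak in Scid.adh.2C2 against 4.23% in the pre-B line, and 1.02% overlapped one in Scid.adh.2C2 only, as the internal Tcf12 promoter did. Each of these Tcf12 promoters held 1 CANNTG, as did 72.3% of all promoters at least once. The one in the outermost promoter had the form CAGCTG, found in 16.3% of promoters, and neither held CAGGTG or its reverse complement CACCTG, found in 20.2%. A match describes these letters and not a bound site.

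The upstream flank of Tcf12 carried a distal peak in both lines, with a fold of 21.8 at chr9:72132518-72134248 in Scid.adh.2C2 and of 15.5 at chr9:72132260-72134106 in the pre-B line. In Scid.adh.2C2 4 further distal peaks lay in introns, with folds from 4.74 to 7.95, and none of these had a partner in the pre-B line, as was so for 62.4% of the 3722 distal peaks of the list. In the pre-B line 1 intronic distal peak, chr9:72075653-72076608 with a fold of 9.76, had no partner in Scid.adh.2C2, which is common in that list (76.6% of distal peaks).

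**Figure D2:**
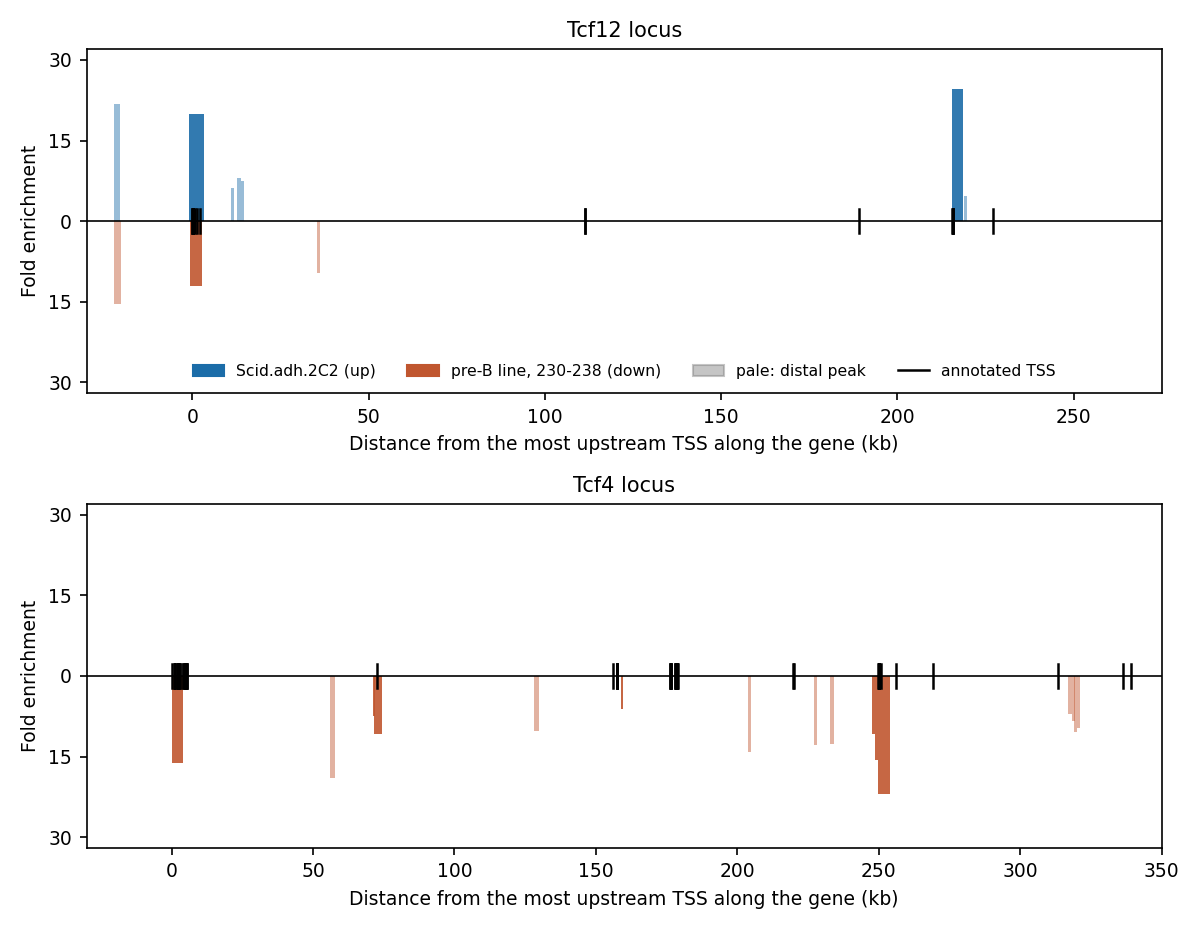
Fold enrichment (y axis, Scid.adh.2C2 upward, the pre-B line downward) of the peaks along Tcf12 (top) and Tcf4 (bottom) by distance from the most upstream TSS along the gene in kb (x axis); bars span the peaks, with a least drawn width for narrow ones, pale bars are distal peaks and black ticks are annotated TSSs. At Tcf12 the internal start has a peak in Scid.adh.2C2 only, with a fold of 24.6, and at Tcf4 every peak is from the pre-B line.

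Id1 encodes an Id protein known as a target of BMP signalling. It lies at chr2:152736251-152737410 on the plus strand with 1 TSS. Scid.adh.2C2 had 2 peaks there, chr2:152734769-152736170 with a fold of 10.2 and chr2:152736274-152736826 with a fold of 6.09. The TSS lay in the gap of 103 bp between them, 23 bp from the nearer one, so that no TSS was inside a peak, as in 5.81% of the marked protein-coding genes of that list (6.69% in the list of the pre-B line). The highest fold stood at the 3.06 percentile and the covered length of 1955 bp at the 33.6 percentile. The second peak had an IDR score, the authors' measure of how well a peak was repeated between replicates, of 795, below the highest score of 1000 that 14513 peaks of the list reached. The nearest peak of the pre-B line to the Id1 TSS was 48201 bp away.

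Id2 encodes the Id protein on which natural killer and innate lymphoid cells depend. It lies on the minus strand at chr12:25093799-25097140, with 3 TSSs that were all inside a peak in both lines. In Scid.adh.2C2 the peak over the gene, chr12:25092451-25097253, was 4803 bp wide with a fold of 24.0. A separate upstream peak, chr12:25097916-25100192, had a fold of 25.6, the highest of the gene. By −log10 q the peak over the gene was the higher of the 2, 121 against 94.5. In the pre-B line it was the higher by fold and by −log10 q. The peak over the gene there, chr12:25094123-25097488, was 3366 bp wide with a fold of 27.7, and the upstream peak, chr12:25097738-25099102, was 1365 bp wide with a fold of 7.22.

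The upstream Id2 peaks of both lines had their summits at nearly the same place, 1507 bp and 1487 bp before the most upstream TSS. The rank of the upstream peak by fold was 5214 of 15513 in Scid.adh.2C2 and 17756 of 19604 in the pre-B line. The highest fold of the gene stood at the 42.5 percentile in Scid.adh.2C2 and the 86.2 percentile in the pre-B line, and by −log10 q at 44.8 and 73.5. The covered length was 5392 bp and 4731 bp, at the 98.3 and 92.3 percentile, an order that turned with a promoter window of 1000 bp. Between 91.8 and 92.8 kb upstream of Id2 both lines had distal peaks, with folds of 11.8 in Scid.adh.2C2 and of 12.3 and 10.4 in the pre-B line. The other 2 distal peaks of Scid.adh.2C2 near Id2, with folds of 7.62 and 6.59, had no partner, like 62.4% of the distal peaks of that list. The Id2 promoter, chr12:25096043-25096342 on the minus strand, is shown as the one Id promoter of the table with an E-box in capitals, of the form CAGCTG, and it held 21 CpG.

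Id2 promoter: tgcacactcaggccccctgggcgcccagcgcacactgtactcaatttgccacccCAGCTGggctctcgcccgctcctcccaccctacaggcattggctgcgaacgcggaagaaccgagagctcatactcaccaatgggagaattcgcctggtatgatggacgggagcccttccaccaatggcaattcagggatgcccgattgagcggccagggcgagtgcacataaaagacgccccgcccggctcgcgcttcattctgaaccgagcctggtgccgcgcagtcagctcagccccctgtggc

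Id3 encodes an Id protein known to follow signals of the T-cell and pre-T-cell receptor. It lies on the plus strand at chr4:136143497-136145755, with 3 TSSs. In Scid.adh.2C2 the main peak, chr4:136143799-136145173, was 1375 bp wide with a fold of 13.1, at the 5.67 percentile. The main peak of the pre-B line, chr4:136143709-136147825, was 4117 bp wide with a fold of 18.3, at the 28.9 percentile. By −log10 q the lines stood further apart, at 5.79 and 54.8. The peak of the pre-B line was 2.99 times as wide, a ratio at the 98.3 percentile of the 8534 overlapping pairs. Its summit lay in the first part of the gene, 164 bp after the nearest TSS, and that of Scid.adh.2C2 lay 651 bp further along, a distance at the 85.1 percentile of those pairs.

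The Id3 peak of the pre-B line ran past the 3′ end of the gene and overlapped a second, separate peak of Scid.adh.2C2, chr4:136147451-136147846, with a fold of 7.05. All 3 TSSs were inside a peak in the pre-B line and 2 were in Scid.adh.2C2. The covered length was 1399 bp in Scid.adh.2C2, at the 12.0 percentile, and 4580 bp in the pre-B line, at the 90.9 percentile. With a window of 5000 bp, which takes in the second peak of Scid.adh.2C2 in full, the percentiles were 24.5 and 90.3. So in percentile the lines stood further apart on the covered length of Id3 than on its fold or −log10 q. The 2 smaller peaks of the pre-B line, both upstream of the main one, had folds of 7.48 and 4.56 and IDR scores of 884 and 580. Upstream of Id3 4 distal peaks stood in the pre-B line, between 15.5 and 62.0 kb before the gene, with folds from 4.89 to 15.6. None had a partner in Scid.adh.2C2, against 76.6% of distal peaks without one over the whole list, and 2 of the 4 lay nearer to Rpl11 than to Id3. The Id3 promoter of the table held 19 CpG and 0 CANNTG.

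**Figure D3:**
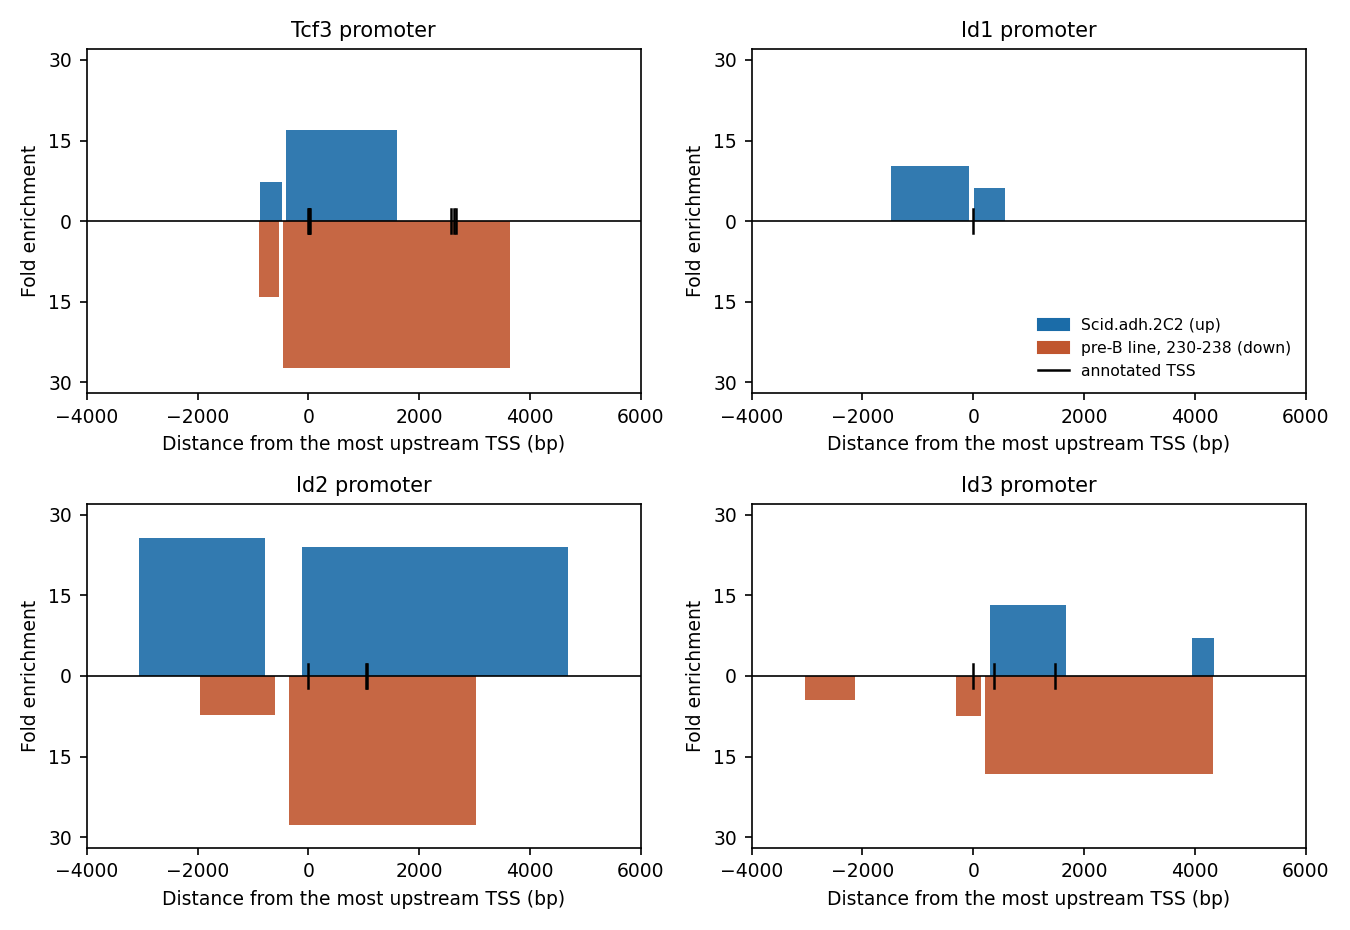
Fold enrichment (y axis, Scid.adh.2C2 upward, the pre-B line downward) of the promoter peaks of Tcf3, Id1, Id2 and Id3 by distance from the most upstream TSS in bp along the gene (x axis); bars span the peaks and black ticks are annotated TSSs. The peaks of the pre-B line run further into Tcf3 (4093 bp against 1994 bp) and Id3 (4117 bp against 1375 bp), Id1 has peaks in Scid.adh.2C2 only, and the upstream Id2 peak has a fold of 25.6 in Scid.adh.2C2 against 7.22 in the pre-B line.

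Id4 encodes an Id protein best known from the nervous system and mammary gland. It lies on the plus strand at chr13:48261228-48266026 with 1 TSS. The nearest peak was 251439 bp away in Scid.adh.2C2 and 251348 bp away in the pre-B line. The promoter is shown because it was unmarked and yet rich in CpG, at chr13:48260866-48261165 on the plus strand. It held 39 CpG, at the 96.1 percentile of the table, and 0 CANNTG.

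Id4 promoter: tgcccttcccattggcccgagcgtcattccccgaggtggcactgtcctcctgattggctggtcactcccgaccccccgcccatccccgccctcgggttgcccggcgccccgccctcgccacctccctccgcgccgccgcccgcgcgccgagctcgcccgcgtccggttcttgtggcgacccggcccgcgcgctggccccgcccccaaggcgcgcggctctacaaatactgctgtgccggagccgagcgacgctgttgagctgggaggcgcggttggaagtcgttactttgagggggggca

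Of the 3837 promoters with 30 or more CpG, 69.5% overlapped a peak in Scid.adh.2C2 against 72.4% in the pre-B line, and 24.0% overlapped none in either list, as was the case for Id4. The Tcf3 promoter of the table held 25 CpG and 1 CANNTG. The middle entry of Tcf12 held 45 CpG and 2 CANNTG.

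**Figure D4:**
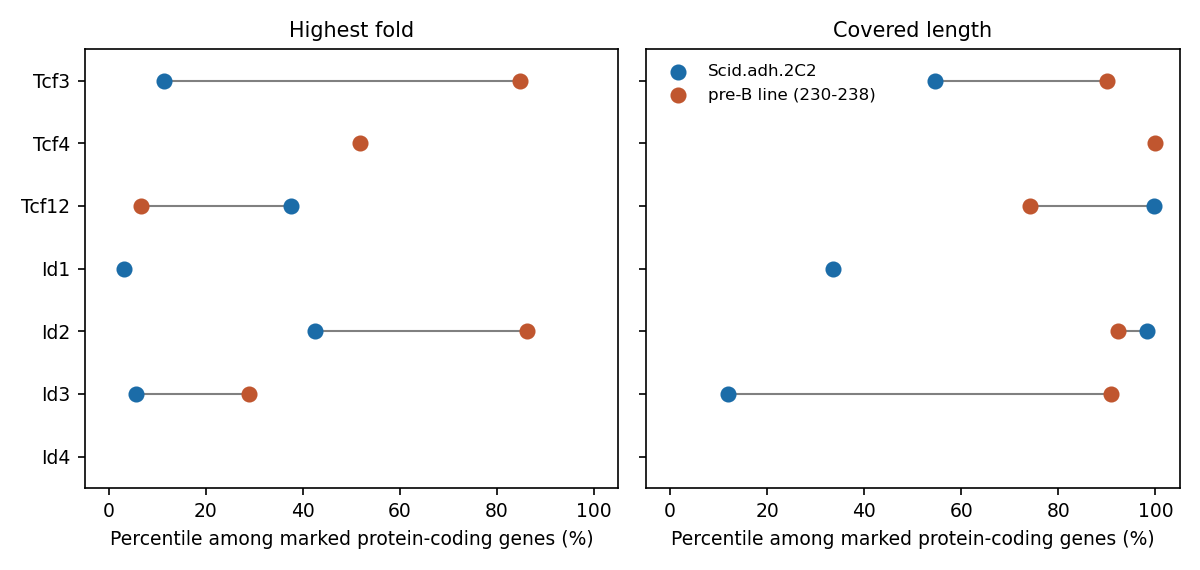
Percentile among the marked protein-coding genes of the same list (x axis, %) of the highest promoter fold (left) and of the covered promoter length (right) for each gene (y axis), with Scid.adh.2C2 in blue and the pre-B line in orange; grey lines join genes marked in both lines, and an unmarked gene has no point. Tcf3 and Id3 stand higher in the pre-B line on both scales, Tcf12 stands lower there on both, and Id2 stands higher on fold (86.2 against 42.5) and lower on covered length (92.3 against 98.3).

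The genes most like each marked gene were found over 4 values, the percentile of the highest fold and of the covered length in each line, with 0 where unmarked. Tanc1, at a distance of 2.48 percentile points, and Pax5, the B-cell commitment factor, at 3.54, were nearest to Tcf4. Nwd1 (3.76) and Capn3 (6.48) were nearest to Id1, Zfp866 (4.03) and Tob2 (5.12) to Id2, and Lmna (6.17) and Zfp385a (6.28) to Id3. Tcf12 had Gbp9 at 8.52 and Nudt4 at 10.6. Tcf3 had no gene within 10 points, and Tceanc2 and Tmem59 were nearest at 10.4. Id2 had 21 genes within 10 points, Id1 15, Tcf4 14, Id3 7 and Tcf12 1. For Id1 and Tcf4 the values of the unmarked line were 0. Their distances and numbers of near genes therefore do not compare directly with those of genes marked in both lines.

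Over all protein-coding genes 45.5% were marked in Scid.adh.2C2, 48.2% in the pre-B line and 5.96% in the pre-B line only. Class II helix-loop-helix factors, the tissue-restricted partners of E proteins, were mostly unmarked. Of these factors 0 of 22 were marked in Scid.adh.2C2 and 2 of 22 in the pre-B line. These were Lyl1, a blood cell factor, with a fold of 27.7, whose peak also reached the windows of Trmt1 and Nfix, and Bhlha15, a factor of secretory cells, with a fold of 17.9. Among 9 other helix-loop-helix repressors 5 were marked in Scid.adh.2C2 against 6 in the pre-B line. Bhlhe40 stood at the 96.8 percentile in Scid.adh.2C2 and the 93.9 percentile in the pre-B line, and Hes6, of a family of Notch targets, at 97.5 and 65.1. Bhlhe41 was marked in the pre-B line only, with a fold of 16.7.

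Of 16 cofactors of E proteins 13 were marked in Scid.adh.2C2 against 14 in the pre-B line, beside 45.5% and 48.2% of all protein-coding genes. None was marked in Scid.adh.2C2 only, which among 16 genes is near the 3.28% of all protein-coding genes. Lmo2, a LIM-domain bridging protein, was marked in the pre-B line only, with a fold of 22.0. Its partner Ldb1 stood at the 84.8 percentile in Scid.adh.2C2 and the 84.5 percentile in the pre-B line, there at a peak that also reached the window of Pprc1, and the corepressor Sin3a at 85.1 and 95.4. Of 12 genes for the turnover of E and Id proteins 11 were marked in both lines and Skp2 in neither. The share of all protein-coding genes marked in both lines was 42.2%. Usp1, a deubiquitinase of Id proteins, stood at the 77.2 percentile in Scid.adh.2C2 against 91.6 in the pre-B line, and the ubiquitin ligase Smurf2 at 64.1 and 53.8.

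Of 19 genes of pathways known to induce Id genes, mostly BMP, TGF-β and EGR, with the inhibitors Smad6 and Smad7 among them, 11 were marked in Scid.adh.2C2 against 15 in the pre-B line. The shares over all protein-coding genes were 45.5% and 48.2%. Of the 19 listed genes 5 were marked in the pre-B line only, against 5.96% of all protein-coding genes. Among the 5 were Smad7, with a fold of 34.7 at the 99.2 percentile, and Egr3, with a fold of 25.8. The receptor gene Acvr1 was another, with a fold of 21.9 at a peak that also reached the window of Upp2. Tbx21 had a peak in Scid.adh.2C2 alone, with a fold of 22.3. Nfil3, which acts upstream of Id2 in innate lymphoid cells, stood at the 81.9 percentile in Scid.adh.2C2 against 88.1 in the pre-B line, and Egr2 at 42.3 and 77.9.

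Known E protein targets were divided by lineage, and some genes stood in both lists or among the markers. Of 18 T-lineage targets 15 were marked in Scid.adh.2C2 against 8 in the pre-B line, beside 45.5% and 48.2% of all protein-coding genes. Cd3e, with a fold of 41.5, Cd3g, with 38.0 at a peak shared with Cd3d, and Bcl11b, the T-cell commitment factor, with 33.2, had peaks in Scid.adh.2C2 alone. Gfi1b, with 16.2, was marked in the pre-B line only, and Cdk6 and Hes1 were marked in both. Of 18 B-lineage targets 7 were marked in Scid.adh.2C2 against 15 in the pre-B line. Cd79b, with a fold of 29.1, and Cd79a, with 27.9 at a peak that also reached the window of Arhgef1, parts of the B-cell receptor complex, were marked in the pre-B line only. The recombinase genes Rag1 and Rag2, in both target lists, had peaks in Scid.adh.2C2 alone, with folds of 16.5 and 8.20, and the peak counted for Rag1 also reached the window of B230118H07Rik. Foxo1 and Vpreb1 were marked in both lines, and the peak counted for Vpreb1 also reached the window of Top3b.

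Among the remaining T-cell markers Thy1 had a fold of 38.6 and Gata3 one of 39.9, at a peak that also reached the window of 9230102O04Rik, both in Scid.adh.2C2 only, and Cd3d and Tcf7 were marked in both lines, at the 93.6 and 88.9 percentile in Scid.adh.2C2 and at 21.7 and 15.4 in the pre-B line. Lck, the third T-cell marker marked in both lines, stood at 9.64 in Scid.adh.2C2 and at 21.9 in the pre-B line. The erythroid factor gene Klf1 was marked in both lines, and the receptor gene Epor in Scid.adh.2C2 only, with a fold of 8.84. Of 6 natural killer and innate lymphoid markers 1 was marked, Klrd1 in the pre-B line, with a fold of 8.55 at the 1.80 percentile. Id2, on which these cells depend, was marked in both lines.

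**Figure D5:**
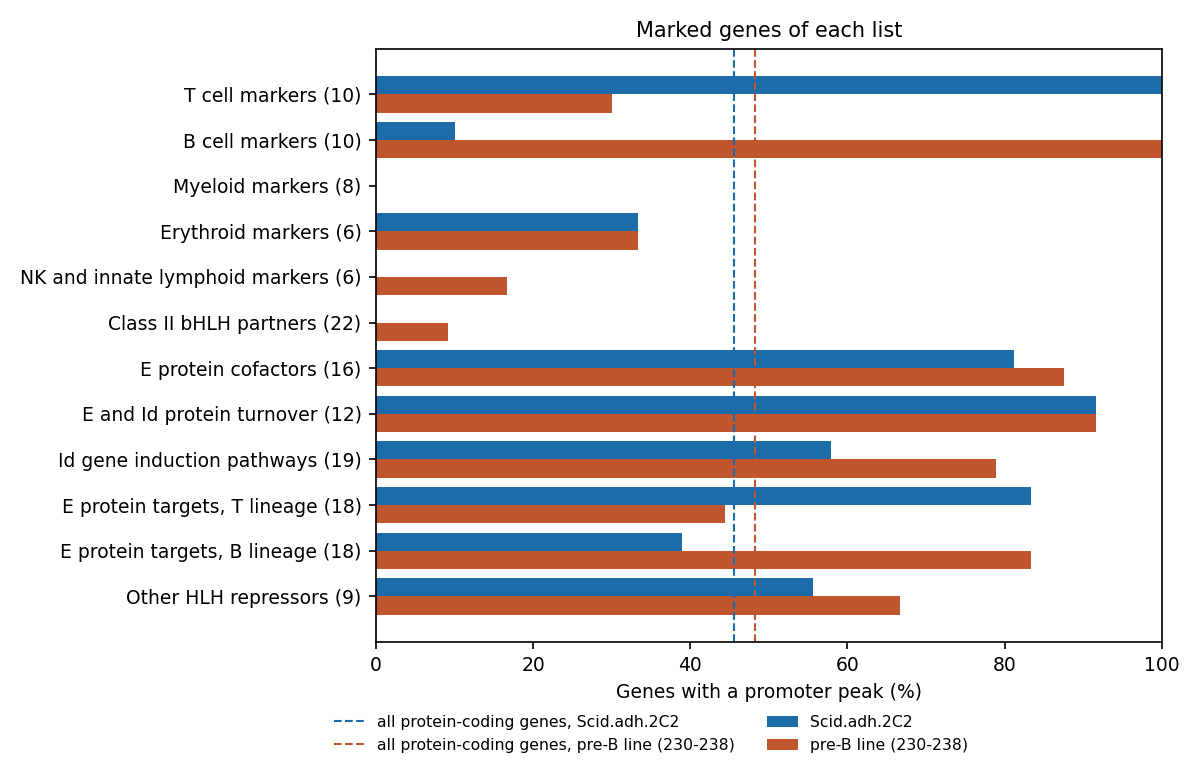
Percent of the genes of each list with a promoter peak (x axis) in Scid.adh.2C2 (blue) and the pre-B line (orange), with the number of genes in parentheses; dashed lines give the share over all protein-coding genes, 45.5% and 48.2%. T-cell markers and T-lineage targets are marked more often in Scid.adh.2C2, B-cell markers and B-lineage targets more often in the pre-B line, and cofactor and turnover genes stand above the dashed lines in both.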

How the data were processed

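Peak lists for H3K4me3 in 2 lines were used, with 2 ChIP libraries and 1 input library per line. Per the submitters' notes and the study's methods, the authors trimmed reads with Trim Galore 0.6.7, mapped them to mm10 (GRCm38) with Bowtie2 2.4.4, called narrow peaks with MACS2 2.2.7.1 against input and kept the optimal set of an IDR analysis of the replicates. The deposited lists give each peak's IDR score, its fold enrichment (a ratio over background) and −log10 p and q values, and these were used as the authors gave them. Read counts were not analysed here, so depth is unknown. TSSs were those of GENCODE M21 and promoter sequences those of RefSeq. A peak counted for a gene where it overlapped a window of 2500 bp either side of a TSS by 1 bp or more; distal peaks reached no such window of any annotated gene. Covered length is the part of the windows inside peaks. The members and lists were chosen with earlier results of these data known. Named genes were the 7 members, from each list up to 3 with the highest fold among those marked in 1 line only and up to 2 with the highest mean percentile among those marked in both, and the 2 nearest to each marked member, besides neighbours of the loci and Lck. Of the genes this rule named, 2 are not reported here. Functions were tested on simulated data. Tables were made in pandas 2.3.3 and numpy 2.4.6 under Python 3.11.15, Wilson intervals with scipy 1.17.1 and figures with matplotlib 3.10.9. The alternatives were other windows, peak filters, TSS sets, list lengths, joining distances and flanks.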

Additional observations from a re-analysis of the deposited data

How the results depend on the processing

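The counts of marked genes, 5 of 7 in each line and 2 in 1 line only, were the same genes with windows of 1000 and 5000 bp, folds of 10 or more, an IDR score of 1000, lists of equal length by −log10 p, summits inside the window, the most upstream TSS only and TSSs of protein-coding transcripts only. Tcf3, Id2 and Id3 stood at a higher percentile of fold in the pre-B line than in Scid.adh.2C2, and Tcf12 at a lower one, with −log10 q in place of fold, both other windows and equal lists. By −log10 q the percentiles of Tcf3 came closer, 19.1 and 56.9 in place of 11.4 and 84.7, as did those of Id2, 44.8 and 73.5, and of Tcf12, 30.2 and 13.5, and those of Id3 moved apart, 5.79 and 54.8. By covered length 2 of the 4 genes marked in both lines stood higher in the pre-B line. By the width of the highest peak it was 4, since the highest peaks of Tcf12 and Id2 in Scid.adh.2C2 are not their widest ones. A window of 1000 bp, chosen after seeing the data, gave 3, with Id2 added. A window of 5000 bp gave the same 2, with Id3 in Scid.adh.2C2 at the 24.5 percentile in place of 12.0. A TSS group covered in 1 line only was found for 3 genes, Tcf3, Tcf4 and Tcf12, which have the most TSS groups (5, 18 and 7). The shares of 2.61% and 7.88% given above cover only genes marked in both lines, which leaves out Tcf4. Over coding transcripts the number of such genes was 4, with Id3 added. With the most upstream TSS only, added after seeing the data and leaving 1 group per gene, it was 1, Id3. Distal peaks numbered 9 in Scid.adh.2C2 against 30 in the pre-B line, 12 of these in the Id1 locus, where the whole lists held 3722 and 5815. With lists of equal length, also chosen after seeing the data, they numbered 9 and 19. With folds of 10 or more they numbered 2 and 16, and with a flank of 50000 bp 6 and 17, since these alternatives admit fewer peaks. Of 60 percentiles of single genes under these alternatives 36 moved beyond their counting interval (Wilson, 95%). No paired analysis was possible because each line has 1 combined list, and leaving out a replicate was not possible for the same reason. Without read counts, a peak missing from a list cannot be told apart from one below the reach of its depth.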

Other observations

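Next to Id1, the line without an Id1 peak had a long run of H3K4me3 peaks. Bcl2l1, the gene of the anti-apoptotic protein BCL-XL, lies downstream of Id1 at chr2:152780668-152831728, and 14 peaks of the pre-B line overlapped it, against 1 of Scid.adh.2C2. Of these, 12 were distal peaks, 48.6 to 88.1 kb beyond the Id1 TSS, with folds from 5.36 to 18.0. The 12 peaks stood at the 99.9 percentile of distal peaks per locus in the pre-B line, and none overlapped a peak of Scid.adh.2C2, as was so for 76.6% of all distal peaks of the list. The promoter of Bcl2l1 was marked in both lines, with a fold of 15.1 at the 8.20 percentile in Scid.adh.2C2 and of 25.7 at the 76.0 percentile in the pre-B line. Cox4i2 and Mcts2, also near Id1, were marked in neither line.

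On the other side of Id3 from its distal peaks, E2f2, a cell cycle regulator, had one of the highest folds of each list. Its fold was 43.3 at the 98.9 percentile in Scid.adh.2C2 and 35.2 at the 99.4 percentile in the pre-B line. By fold, the neighbours Rpl11 and Asap3 stood at the 52.6 and 33.8 percentile in Scid.adh.2C2 and at 31.4 and 23.6 in the pre-B line. By covered length in Scid.adh.2C2, Asap3 stood at the 12.2 percentile, near the 12.0 of Id3, Rpl11 at 51.1 and E2f2 at 75.3. In the pre-B line Rpl11 stood at the 99.1 percentile of covered length, E2f2 at 79.9 and Asap3 at 15.6, where Id3 stood at 90.9. Like Id3, Rpl11 stood higher by covered length in the pre-B line, whereas Asap3 stood low in both lines. The low fold percentile of Id3 in Scid.adh.2C2 was not shared by E2f2.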
